A study of Mus musculus with 4 samples.

Results

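The genes described here are 6 Reg lectins (Reg1, Reg2, Reg3a, Reg3b, Reg3g and Reg4) and 4 other genes of Paneth cells (Lyz1, Mmp7, Ang4 and Pla2g2a). They were followed through all 14 probe sets that the platform annotation gives 1 of these symbols, out of 34945 probe sets and 18193 genes with a single symbol. RNA came from cultures of mouse intestinal crypts on fibronectin, 1 Affymetrix array per group. The groups were cells given IL-17A (50 ng/ml) and FGF2 (5 ng/ml) together for 6 h, IL-17A alone for 6 h, FGF2 alone for 6 h, and cells left untreated. All groups shared medium with 2.5% serum, insulin and antibiotics. Strain, sex, age, gut segment and the culture time of the untreated cells were not given in the sources used here. Each group rests on a single array, so replicates are lacking, no test could be run, and all differences given here are between single arrays, whose number limits the precision.

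Reg proteins are small secreted C-type lectins. In mouse gut, Reg3b and Reg3g are known as antibacterial proteins of enterocytes and Paneth cells whose transcription responds to IL-22 through STAT3 and to microbial signals through MyD88. Reg1 and Reg2 are known mainly from the exocrine pancreas and from regenerating epithelium, and Reg4 from secretory cells of the crypt. Paneth cells sit at the base of small intestinal crypts and secrete antimicrobial proteins: lysozyme (Lyz1) cleaves bacterial cell walls, matrilysin (Mmp7) activates mouse alpha-defensin precursors, Ang4 is a microbicidal ribonuclease and Pla2g2a a phospholipase that attacks bacterial membranes. The series asks how IL-17A, an inflammatory cytokine made largely by lymphocytes, and the fibroblast growth factor FGF2 cooperate in repair of the intestinal epithelium.

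In the RefSeq annotation of GRCm38.p6, 5 of the 6 Reg lectin members lie in 1 cluster on chromosome 6, in the order Reg3b, Reg3a, Reg2, Reg1 and Reg3g. Reg3d, which is not among the genes described, lies between Reg3b and Reg3a, and a pseudogene between Reg1 and Reg3g. Reg4 lies apart on chromosome 3. Promoter windows, from 250 bases before to 50 bases after the annotated start, were found for 9 of the 10 genes, and 4 are shown because the results below turn on these genes. They are chr6:78370635-78370934 (plus strand) for Reg3b, chr6:78468825-78469124 (minus strand) for Reg3g, chr6:78404905-78405204 (plus strand) for Reg2 and chr9:7691840-7692139 (plus strand) for the first start of Mmp7, from RefSeq on GRCm38.p6. Capitals mark matches to any of 4 motifs searched on both strands.
Reg3b: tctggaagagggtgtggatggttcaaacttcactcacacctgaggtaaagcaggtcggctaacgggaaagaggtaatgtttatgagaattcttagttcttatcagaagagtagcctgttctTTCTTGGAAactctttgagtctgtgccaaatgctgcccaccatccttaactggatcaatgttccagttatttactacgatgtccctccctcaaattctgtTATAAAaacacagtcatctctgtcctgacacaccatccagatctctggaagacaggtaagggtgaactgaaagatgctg
Reg3g: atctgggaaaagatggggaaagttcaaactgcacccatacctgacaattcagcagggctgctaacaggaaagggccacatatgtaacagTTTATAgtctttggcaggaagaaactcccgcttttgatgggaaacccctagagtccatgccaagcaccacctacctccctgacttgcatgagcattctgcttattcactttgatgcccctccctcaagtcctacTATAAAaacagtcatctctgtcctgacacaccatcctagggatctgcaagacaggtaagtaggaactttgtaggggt
Reg2: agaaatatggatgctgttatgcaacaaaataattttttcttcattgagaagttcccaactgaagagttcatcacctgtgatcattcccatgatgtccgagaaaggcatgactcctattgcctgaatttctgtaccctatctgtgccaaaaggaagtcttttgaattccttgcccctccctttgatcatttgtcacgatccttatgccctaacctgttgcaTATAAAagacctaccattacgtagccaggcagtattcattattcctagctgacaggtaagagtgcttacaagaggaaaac
Mmp7: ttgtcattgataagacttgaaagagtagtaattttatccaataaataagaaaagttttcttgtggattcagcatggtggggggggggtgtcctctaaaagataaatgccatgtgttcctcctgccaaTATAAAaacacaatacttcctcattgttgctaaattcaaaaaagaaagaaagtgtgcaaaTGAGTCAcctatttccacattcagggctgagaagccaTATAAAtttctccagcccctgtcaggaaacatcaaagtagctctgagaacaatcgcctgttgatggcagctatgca

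The motifs were the TATA box (TATAAA), a STAT palindrome (TTCNNNGAA), AP-1 (TGANTCA) and a motif of NF-kB, and no matches overlapped in these windows. Over 32851 RefSeq promoter windows of that length, 13.6% held the first, 8.3% the second, 7.81% the third and 1.2% the last. Each of the 4 windows had a TATAAA ending 21 to 25 bases before the start. Reg3b held in addition TTCTTGGAA, 129 bases before the start, and Mmp7 held TGAGTCA, 63 bases before it. The windows of Reg3b and Reg3g shared a run of 29 identical bases at the same distance from the start (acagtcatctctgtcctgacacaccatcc), the longest run shared by any pair of the members' windows. A match in a window describes its letters and is neither a binding site nor a cause of the values below.

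Signals are the authors' MAS5 values with the log2 undone. A floor was set at the median of all signals, 89.8, and a signal under it was raised to it before a ratio was taken, so that a fold against a floored signal is a lower bound. Of the members, 8 of 10 were over the floor on at least 1 array. Reg3a, with signals of 2.17 to 23.5, and Pla2g2a, with 32.4 to 70.0, were under it on every array and have no fold. Pla2g2a is annotated as a transcribed pseudogene in the C57BL/6J assembly, and the mouse strain of these cultures is not known here. As a yardstick of error, each factor's effect was read in the absence and in the presence of the other, and the spread of the difference over genes was turned into an SD. For a log2 ratio this SD was 0.29 where the mean log2 signal was under 8, 0.21 between 8 and 10, and 0.13 between 10 and 12. True interaction raises this yardstick and the floor lowers it.

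**Figure D1:**
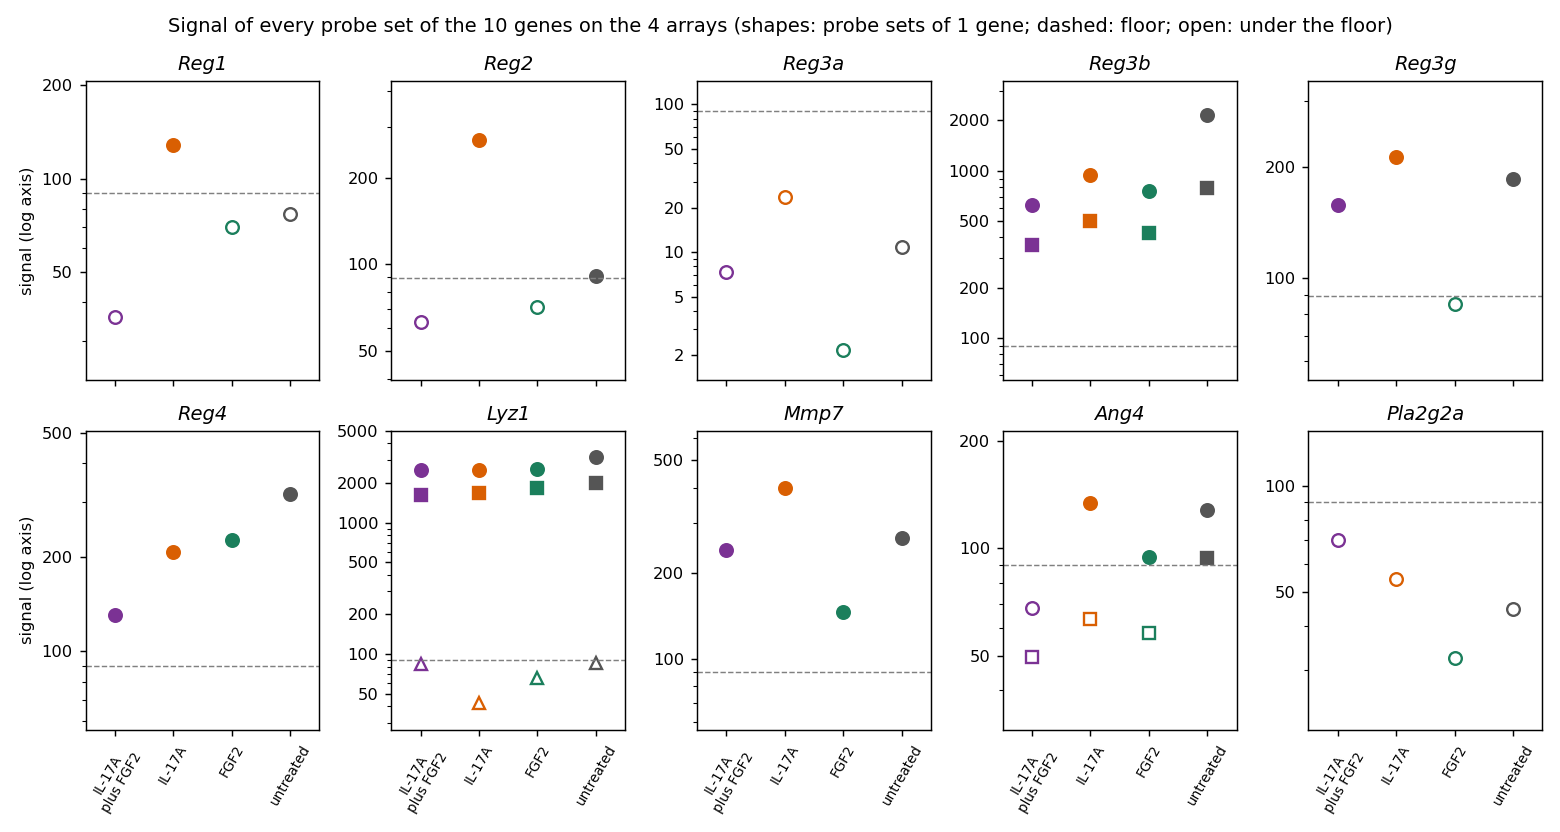
Signal of every probe set of the 10 genes (log axis, 1 panel per gene) on the array of each group, with shapes for the probe sets of a gene, a dashed line at the floor of 89.8 and open symbols under it. Reg3b was highest in untreated cells in both probe sets, Reg1 and Reg2 were highest with IL-17A alone, and Reg3a and Pla2g2a were under the floor throughout.

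Paneth cell genes outside the members were checked first. Of 30 other Paneth cell genes listed, 9 had a probe set with 1 symbol and 6 of these were over the floor. Spink4, a protease inhibitor of Paneth and goblet cells, had a signal of 4402 with both factors, 4734 with IL-17A, 4864 with FGF2 and 5527 untreated. Mptx1, a pentraxin found in Paneth cells, had 450.3, 566, 529 and 648 in the same order, and the intelectin gene Itln1 288, 322, 273 and 357. These 3 secreted products were over the floor on every array and lower in each stimulated group than in untreated cells, by less than 1.5-fold. With IL-17A the log2 ratios of Mptx1 and Itln1, −0.20 and −0.15, were smaller than the yardstick SD of 0.21. Their ratios with FGF2 and with both factors exceeded that SD. Median log2 signals of whole arrays also differed from the untreated one, by −0.16 with both factors, −0.04 with IL-17A and −0.09 with FGF2. The other 3 genes, Dll4, Ephb3 and Kcnn4, which encode a Notch ligand, an ephrin receptor and a potassium channel, went the other way with FGF2, 1.65-, 1.28- and 1.11-fold higher than in untreated cells. With both factors Dll4 was 1.59-fold higher, while Ephb3 and Kcnn4 were lower, with log2 ratios of −0.05 and −0.68. With IL-17A the brightest probe sets of Dll4, Ephb3 and Kcnn4 were lower, at −0.10, −0.13 and −0.58. The other Dll4 probe set was higher with IL-17A, at 0.25. The log2 ratio of Kcnn4 with FGF2, 0.15, was smaller than the yardstick SD of 0.29. Among the 6, 0 were at least 2-fold different in any of the 5 comparisons. The alpha-defensin Defa3 was under the floor on all arrays. The general epithelial marker Epcam lay between 16578 and 18315.

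Reg3b was the member with the widest span among those over the floor everywhere. Its brighter probe set had a signal of 624 with both factors, 945 with IL-17A, 756 with FGF2 and 2151 in untreated cells. Every stimulated array was below the untreated one, and the combined array was lowest. The second probe set, which can detect several transcripts, had 362, 501, 428 and 787 in the same order of groups and ranked the arrays the same way. In the brighter probe set Reg3b was 3.45-fold lower with both factors than in untreated cells, 2.28-fold lower with IL-17A and 2.85-fold lower with FGF2, log2 ratios of −1.78, −1.19 and −1.51 against a yardstick SD of 0.21. Counted from the lowest ratio among 12258 genes over the floor on at least 1 array, it ranked 30 for the combination, 15 for IL-17A and 28 for FGF2. The second probe set gave smaller ratios of −1.12, −0.65 and −0.88, so that its change with either factor alone was under 2-fold.

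The difference in Reg3b with both factors was smaller than the sum of the single differences. The single log2 ratios added to −2.70 and the combined one was −1.78, a difference of 0.91 that ranked 86 from the highest among the 12258 genes. In the second probe set this difference was 0.41. FGF2 in the presence of IL-17A went with a 1.51-fold lower Reg3b, and IL-17A in the presence of FGF2 with a 1.21-fold lower one.

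Enterocyte markers were lower on the same arrays. Of 14 listed, 13 had a probe set, 11 were over the floor, and all 11 were below untreated cells with the combination, with IL-17A and with FGF2. Their median log2 ratios were −1.36, −0.92 and −0.47, and 9, 5 and 1 of them were at least 2-fold lower. The summed signal of the 13 was 12654 with both factors, 15964 with IL-17A, 23816 with FGF2 and 30112 in untreated cells, and 0 of the markers had a deposited log2 value of 0 on any array. With FGF2, Reg3b at −1.51 was below each of these 11 markers, whose lowest was the chloride and bicarbonate exchanger Slc26a3 at −1.37. The second Reg3b probe set, at −0.88, was not below Slc26a3. For IL-17A, Reg3b at −1.19 lay inside their range, which ran from −0.42 to −1.47 for the apolipoprotein Apob. The part of enterocyte content in the Reg3b values was not tested, and in RNA of a whole culture fewer cells of a type and less RNA per cell cannot be told apart.

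**Figure D2:**
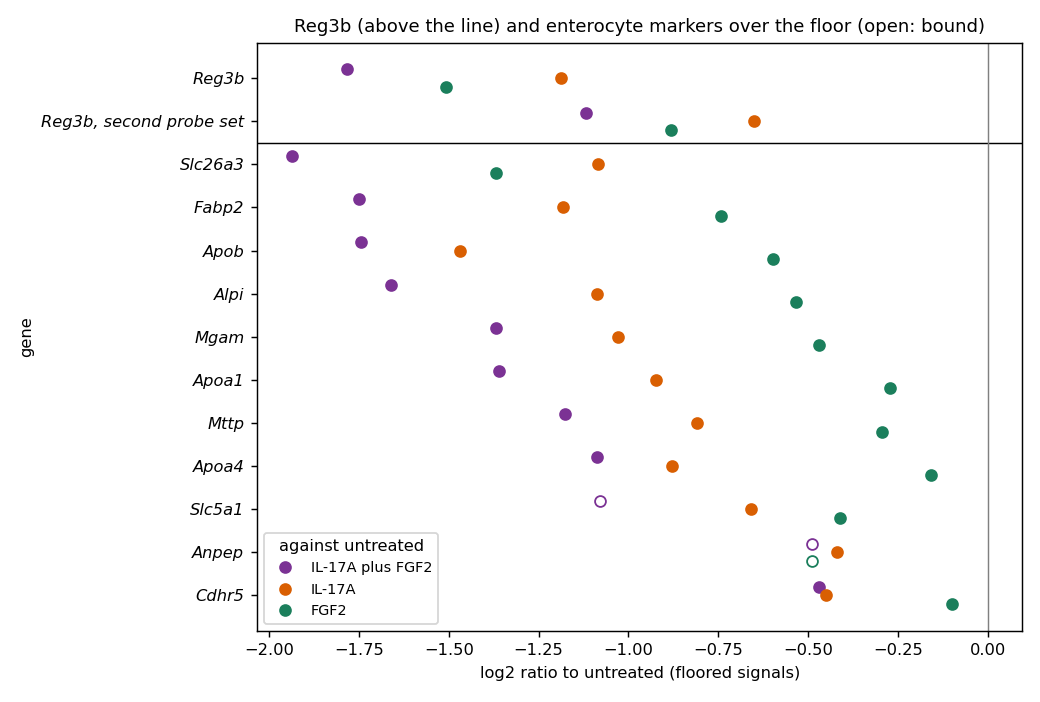
Log2 ratio to untreated of both Reg3b probe sets (above the line) and of the 11 enterocyte markers over the floor, for both factors, IL-17A and FGF2, with open symbols for bounds. Reg3b at −1.78 with both factors lay within the range of the markers, which reached −1.94 for Slc26a3.

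The genes whose pattern was most like that of Reg3b were found by the Euclidean distance of the 3 log2 ratios to untreated, over 10635 named genes above the floor on all 4 arrays. The closest were Slc26a3 (distance 0.23), Slc51b (0.36), S100g (0.47), Upk3bl (0.50) and Slc51a (0.52). Slc51b, a subunit of the bile acid exporter of enterocytes, had signals of 137 with both factors, 275 with IL-17A, 205 with FGF2 and 514 in untreated cells. S100g, which encodes an intestinal calcium-binding protein, had 305, 345, 236 and 793 in that order. With FGF2 its log2 ratio was −1.75, below that of Reg3b at −1.51, unlike the listed enterocyte markers. Likeness over 3 ratios of single arrays is a description of these arrays alone.

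Reg3g, which shares the promoter run shown above with Reg3b and lies at the other end of the cluster, differed from it in the order of its arrays. Its signal was 158 with both factors, 213 with IL-17A, 85.1 with FGF2 and 185 in untreated cells. The FGF2 array alone was under the floor, and the other 3 lay within 1.35-fold of each other. Against untreated cells Reg3g was at least 2.06-fold lower with FGF2, 1.15-fold higher with IL-17A and 1.18-fold lower with both. The last pair of log2 ratios, 0.20 and −0.23, were smaller than the yardstick SD of 0.29. IL-17A in the presence of FGF2 went with an at least 1.76-fold higher Reg3g. That log2 bound, 0.81, ranked 75 from the highest.

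Reg1 and Reg2, close relatives of each other, were highest with IL-17A alone. Reg2 had a signal of 63.2 with both factors, 271 with IL-17A, 70.9 with FGF2 and 90.8 in untreated cells. Only the IL-17A array was clearly over the floor, and the untreated signal stood just above it. Reg2 was 2.99-fold higher with IL-17A than in untreated cells, a log2 ratio of 1.58 that ranked 17 from the highest of 12258 genes, and at least 3.02-fold lower with both factors than with IL-17A. No fold for IL-17A can be given where FGF2 was also present, since both signals were under the floor. Reg1 had 36.0, 129, 69.8 and 77.2 in the same order of groups, so that it passed the floor through the IL-17A array alone, at least 1.43-fold above untreated cells. Both are single probe sets near the floor.

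Because Reg1 and Reg2 are abundant in pancreatic acinar cells, acinar markers were set beside them. Of 10 listed, 8 had a probe set and 4 were over the floor. Prss2, a trypsinogen, had signals of 92.5 with both factors, 226 with IL-17A, 146 with FGF2 and 102 in untreated cells in its brightest probe set. All 4 of its probe sets were highest with IL-17A, and each of them can detect several transcripts. Ctrb1, chymotrypsinogen B, had 216, 419, 148 and 170.0 and was 2.46-fold higher with IL-17A than in untreated cells. The elastase gene Cela1 had 327, 465, 385 and 455, and the carboxypeptidase gene Cpb1 was over the floor in untreated cells only. The summed signal of the 8 markers was 828 with both factors, 1441 with IL-17A, 815 with FGF2 and 942 in untreated cells, and 0 of them had a deposited log2 value of 0. Reg2, Reg1, Prss2, Ctrb1 and, by a small margin, Cela1 thus shared their highest array, and the part of acinar-type transcripts in the Reg values was not tested.

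**Figure D3:**
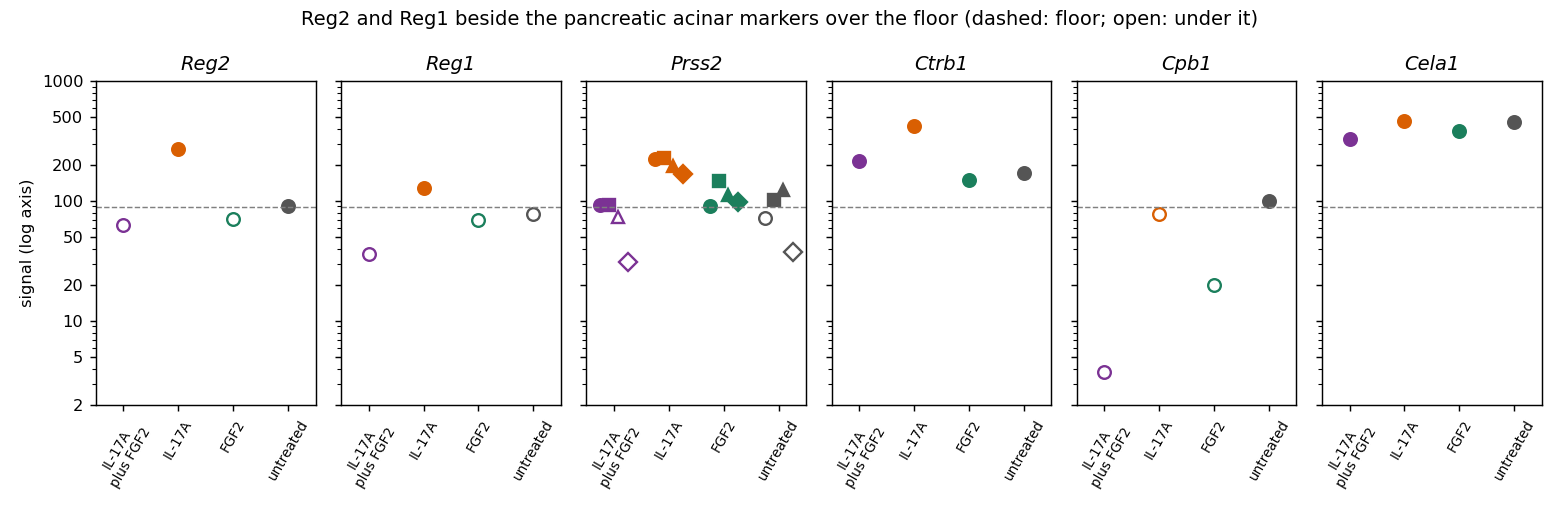
Signals (log axis) of Reg2 and Reg1 beside the 4 pancreatic acinar markers over the floor on the array of each group, with shapes for the 4 probe sets of Prss2. Reg2 at 271, Reg1 at 129, Ctrb1 at 419 and every Prss2 probe set were highest with IL-17A alone, while Cpb1 was not. The Prss2 probe sets can each detect several transcripts.

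Reg4 had a signal of 130.5 with both factors, 208 with IL-17A, 227 with FGF2 and 318 in untreated cells. Each stimulated array was below the untreated one and the combined array was lowest, as for Reg3b, but here the single differences added up. Reg4 was 1.53-fold lower with IL-17A, 1.4-fold lower with FGF2 and 2.44-fold lower with both. The single log2 ratios of −0.61 and −0.49 added to −1.10, against −1.29 observed. Read in the presence of the other factor, IL-17A went with a 1.74-fold lower and FGF2 with a 1.6-fold lower signal.

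Lyz1 differed little between arrays. The brightest probe set had 2514 with both factors, 2528 with IL-17A, 2565 with FGF2 and 3135 in untreated cells, and the second 1612, 1688, 1831 and 2016. Every stimulated array was below the untreated one, by 1.22- to 1.25-fold in the first probe set, with log2 ratios of −0.32, −0.31 and −0.29 against a yardstick SD of 0.13. When arrays were centred on their medians, these log2 ratios were −0.16, −0.27 and −0.20. With quantile normalization, which gives every array the same distribution of signals, they were −0.35, −0.32 and −0.30. Both probe sets end in _x_at and can detect related transcripts, and the third, not of that kind, was under the floor on every array. Lyz2, the near-identical lysozyme of macrophages, had 1061, 1214, 1258 and 1554 in the same order and was also highest in untreated cells. Of 10 macrophage markers, Lyz2 among them, 9 were over the floor. The signals of Lyz1 and Lyz2 cannot be told apart with certainty on these probe sets.

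Mmp7 moved in opposite directions with the factors, and by similar amounts in both readings of each. Its signal was 241 with both factors, 398 with IL-17A, 146 with FGF2 and 265 in untreated cells. The IL-17A array was highest and the FGF2 array lowest, with the combined and untreated arrays close together between them. IL-17A went with a 1.5-fold higher signal without FGF2 and a 1.66-fold higher one with it. FGF2 went with a 1.82-fold lower signal without IL-17A and a 1.65-fold lower one with it. These log2 ratios of 0.59, 0.73, −0.87 and −0.72 exceeded the yardstick SD of 0.29, and none reached 2-fold. The combined array was 1.1-fold below the untreated one, a log2 ratio of −0.14 that was 0.02 when arrays were centred on their medians. Mmp3 and Mmp10, metalloproteinase genes not typical of Paneth cells, were 5.31- and 2.46-fold higher with FGF2, the direction opposite to Mmp7.

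Ang4 was near the floor. Its brighter probe set had 68.3 with both factors, 134 with IL-17A, 94.8 with FGF2 and 128 in untreated cells, at least 1.42-fold lower with the combination than in untreated cells. The second probe set, open to related transcripts, was over the floor in untreated cells alone, at 93.8.

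**Figure D4:**
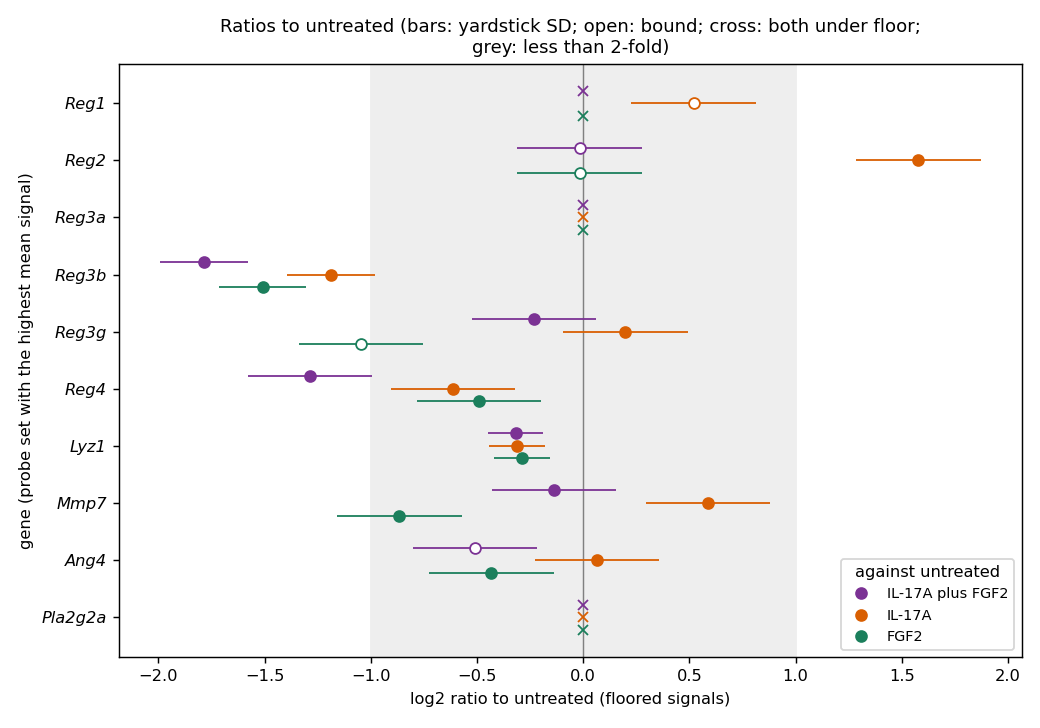
Log2 ratio to untreated of each gene in its brightest probe set, for both factors, IL-17A and FGF2, with bars of 1 yardstick SD, open symbols for bounds, crosses where both signals were under the floor and grey within 2-fold. Outside the grey lie Reg3b in all 3 comparisons, Reg2 with IL-17A, Reg3g with FGF2 and Reg4 with both factors.

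Over the list, the combination against untreated cells gave 2 of 10 members at least 2-fold lower (Reg3b and Reg4) and 0 higher, where 1.17% of all 18193 genes were lower and 0.61% higher. IL-17A against untreated cells gave 1 lower (Reg3b) and 1 higher (Reg2), beside 0.154% and 0.253% of all genes. FGF2 against untreated cells gave 2 lower (Reg3b and Reg3g) and 0 higher, beside 0.649% and 0.319%. The combination against IL-17A gave 1 lower (Reg2) and 0 higher, beside 0.577% and 0.368%, and against FGF2 0 in either direction, beside 0.181% and 0.247%. The members had been chosen with earlier results of these arrays known, so these counts describe them.

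The median log2 ratio of the 10 members was −0.19 with both factors, 0.03 with IL-17A and −0.36 with FGF2 against untreated cells, while the median of all genes was 0 in each. It was −0.55 for the combination against IL-17A and 0 for the combination against FGF2. These medians include members whose ratio is a bound or was set to 0 by the floor. The comparisons of FGF2 and IL-17A with untreated cells share the untreated array, while both readings of FGF2 share none.

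**Figure D5:**
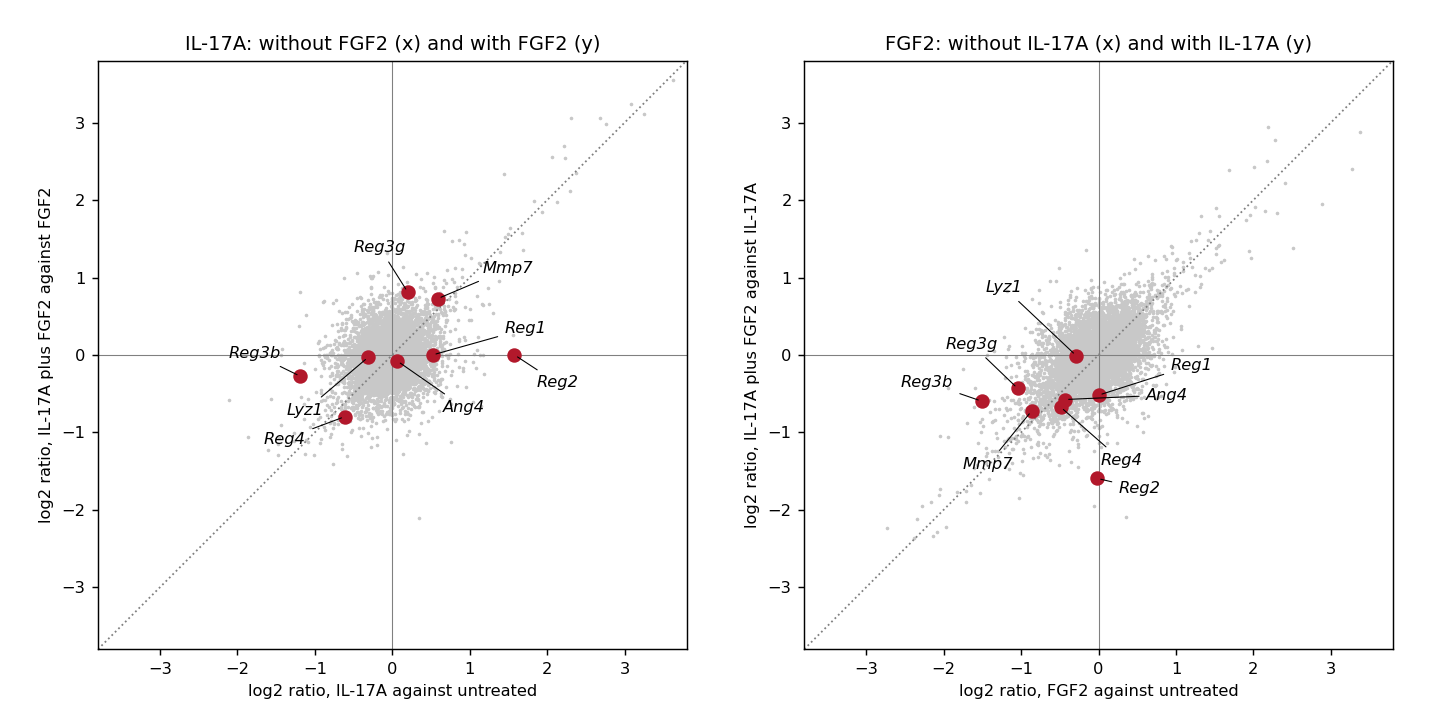
Log2 ratio of IL-17A (left) and FGF2 (right) without the other factor on the x axis and with it on the y axis, for genes over the floor (grey) and the 8 members over it (red), with the line of equal values dotted. Mmp7 and Reg4 lie near the line in both panels, while the 0 of Reg1 and Reg2 on the y axis of the left panel was set by the floor and is not measured.

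Genes linked to Reg3 induction or signalling were looked at as a list of 17 receptors and signalling genes, all over the floor. Of the 17, 9 were below untreated cells with the combination, 10 with IL-17A and 15 with FGF2. The shares of all genes were 33.4%, 35.6% and 34.8%, where genes set to 0 by the floor count as not below. With FGF2 the median log2 ratio of the 17 was −0.24. In these 3 comparisons 0 of the 17 were at least 2-fold lower. At the same threshold 1 was higher with the combination and with IL-17A, and 0 with FGF2. It was Nfkbiz, a nuclear NF-kB cofactor, with signals of 5565 with both factors, 5447 with IL-17A, 1794 with FGF2 and 1901 in untreated cells in its brightest probe set. Its other probe sets differed from each other. Of these, 1 had 713, 813, 361 and 262 in the same order, also higher with IL-17A and with both factors. The other had 498, 463, 598 and 591, lower with IL-17A and with both factors. The IL-22 receptor chain Il22ra1 had 628, 630.1, 459 and 592, and Stat3 2341, 2286, 2167 and 2387 in its brightest probe set. Socs3, a target and inhibitor of STAT3 signalling, had 3973, 2760, 2542 and 2060 in its brightest probe set and was 1.93-fold higher with both factors. Of the other Socs3 probe sets, 1 was also highest with both factors, and 1 was highest with IL-17A alone at 1712, against 1693 with both.

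Several other defence genes known from epithelium were higher with IL-17A. RNA came from whole cultures, in which 10 of 10 listed fibroblast markers were also over the floor. The cells that made these transcripts are therefore not known here. Of 21 listed, 17 were over the floor, and 4 of them (Lcn2, Saa3, Pigr and Duoxa2) were at least 2-fold higher with IL-17A and 0 lower, while Reg3b was lower. With FGF2, 1 was higher (S100a8, a calprotectin subunit) and 1 lower (Saa3, an acute-phase protein), and 13 of 17 were below untreated cells. Camp, which encodes the antimicrobial cathelicidin, had 270.2 with both factors, 299 with IL-17A, 125 with FGF2 and 160.4 in untreated cells, the order of arrays in which IL-17A was highest and FGF2 lowest, as for Mmp7 and Reg3g.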

How the data were processed

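RNA of mouse intestinal crypt cultures was measured on 4 arrays, 1 per group. The deposited log2 values, 1 per probe set, were made by the authors with MAS5, per the submitters' processing notes. Its version is not given in the sources used here. Undoing the log2 gave, on each array, a mean signal of 500.003 after trimming 2%, so the arrays had been scaled. Of 45101 probe sets, 64 controls were left out, 34945 had 1 gene symbol, 932 several and 9160 none. Symbols came from the platform annotation, of which 34741 matched GRCm38.p6 by Entrez identifier and 0 changed. A gene was represented by its brightest probe set (mean log2 over the arrays), giving 18193 genes, of which 12258 were over the floor on at least 1 array. Genes are called at 2-fold. Named genes were all members, genes of the fixed lists and the 5 nearest patterns. The members and lists were chosen with earlier results of these data known. Alternatives were 2 other scalings, 3 other floors and no floor, 2 other ways to represent a gene and folds of 1.5 and 3. Calculations used Python 3.11.15, numpy 2.4.6 and pandas 2.3.3 and were tested on simulated data. The simulated folds were placed only in genes with untreated signals well above the floor, so genes that start near it were not covered. Detection calls were not analysed here.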

Additional observations from a re-analysis of the deposited data

Results flagged for a closer look

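For IL-17A, the brighter probe set of Ang4 had a log2 ratio of −0.079 with FGF2 also given and of 0.065 without it, opposite in sign. Both are smaller than the yardstick SD of 0.29, the first is a bound, and the difference between them was not tested.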

How the results depend on the processing

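The floor mattered most, since most members lay within a few-fold of it. With IL-17A against untreated cells, members at least 2-fold higher numbered 0 with the floor at the 75th percentile, with the floor added to the signal or at a 3-fold threshold, and 2 with no floor or at 1.5-fold. Among all genes, 20 were higher with the 75th percentile floor, 30 with the added floor and 1080 with no floor, against 46. Members lower numbered 0 with the mean of all probe sets or at 3-fold and 2 at 1.5-fold. With that mean 46 of all genes were lower, against 28. With FGF2, members lower numbered 1 under median centring, the 75th percentile floor or the added floor and 0 at 3-fold, and their median was 0 with the 75th percentile floor. For median centring and those floors, in that order, 88, 29 and 59 of all genes were lower, against 118. With both factors, members lower numbered 1 with the 75th percentile floor, the added floor or at 3-fold, and the median was −0.54 with no floor. Of all genes, 58 were lower with the 75th percentile floor and 132 with the added floor, against 212. For the combination against IL-17A, members lower numbered 2 with the 25th percentile floor, 0 with the 75th (median 0), 3 with no floor and 4 at 1.5-fold. Under those floors and no floor, 442, 26 and 1525 of all genes were lower, against 105. For the combination against FGF2, members higher numbered 1 with the 25th percentile floor and 2 with no floor or at 1.5-fold, and 1 was lower at 1.5-fold. Higher calls among all genes were 282 with the 25th percentile floor and 1277 with no floor, against 45. Calls among all genes were not counted at 1.5-fold or 3-fold. The cause was not tested beyond these settings.

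Reg3b kept log2 ratios under −0.9 for each of the 3 comparisons with untreated cells under all 8 alternatives, and was under 2-fold for IL-17A with the mean of its probe sets (−0.92). Reg2 with IL-17A was 0 with the 75th percentile floor, which lies above all its signals. Under that floor every ratio of Reg1, Reg3g, Reg4, Mmp7 and Ang4 was 0 as well, and only Reg3b and Lyz1 kept theirs. Median centring lifts the combined array by 0.16 relative to the untreated one. It moved higher and lower calls among all genes to 145 and 160, against 111 and 212, for both factors, to 76 and 88, against 58 and 118, for FGF2, to 94 and 78, against 67 and 105, for the combination against IL-17A, and to 55 and 24, against 45 and 33, against FGF2. With no floor, 1080 and 1303 genes were called for IL-17A, against 46 and 28. No paired analysis was possible because each group has 1 array.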

Other observations

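The alpha-defensins, main products of Paneth cells, are hard to name on this array because most of their probe sets carry several symbols or none. A pair of probe sets annotated to more than 1 alpha-defensin gene had signals of 1778 and 3311 with both factors, 1859 and 3562 with IL-17A, 1877 and 3473 with FGF2 and 1906 and 3914 in untreated cells. Each was highest in untreated cells, and the log2 ratios to untreated lay between −0.24 and −0.02. Whole-array medians differed from the untreated one by −0.16 with both factors, −0.04 with IL-17A and −0.09 with FGF2. The ratios of the first probe set, −0.10, −0.04 and −0.02, were of that size or smaller. Defa39, named after its values were seen, had 275 with both factors, 345 with IL-17A, 298 with FGF2 and 372 in untreated cells. Its probe set can detect several transcripts. Defa31, looked up together with Defa39, was under the floor on every array, with signals of 34.4 to 78.6.

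Of 14 regulators of the secretory lineage, 9 were over the floor and 0 were at least 2-fold different in any comparison. Atoh1, which directs crypt cells to secretory fates, had 263 with both factors, 393 with IL-17A, 215 with FGF2 and 282 in untreated cells, the same order of arrays as Mmp7. Spdef, which acts in goblet and Paneth cell maturation, had 112, 151, 79.8 and 171. Dll4, a Notch ligand also made by endothelial cells, had 335.0, 197, 349 and 211. The endothelial marker list was above untreated cells with FGF2 in 9 of 9 genes, beside 31.1% of all genes. The part of endothelial transcripts in the Dll4 values was not tested.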
